A study of Mus musculus with 6 samples.

Results

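The genes described are 8 components of fast inhibition in the spinal cord: the glycine receptor subunits Glra1, Glra2, Glra3 and Glrb, the scaffold gene Gphn, the GABA-A receptor subunit Gabra2, and the chloride transporters Slc12a5 and Slc12a2. They were chosen by gene symbol for their roles, with earlier results of these data known. All 8 were found among the 25576 genes with a value above 0 in at least 1 library. Bulk RNA-seq covered whole spinal cord of mice at postnatal day 4, with 3 libraries labelled SMA and 3 labelled control. The SMA mice were of genotype mSmn-/-, hSMN22tg/0, so they were homozygous for a mutant allele of mouse Smn and carried a human SMN2 transgene as a model of severe spinal muscular atrophy. The control mice were heterozygous (mSmn+/-, hSMN22tg/0), so they carried the transgene and 1 mutant Smn allele too, and they are not wild type. Both groups were of strain FVB, from the cross of heterozygous knockout mice with mildly affected transgenic mice. The methods describe the bulk libraries as triplicates of what may be a single sample per group, so p-values measure only the spread between these libraries, which may be technical.

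Glycine and GABA are the fast inhibitory transmitters of the spinal cord, and both open chloride channels. Glycine receptors are built from alpha subunits and the beta subunit, which binds gephyrin (Gphn) and so anchors the receptor at the synapse. During development the alpha 2 subunit (Glra2) predominates first and alpha 1 (Glra1) later. Whether an open chloride channel excites or inhibits a neuron depends on its internal chloride, which NKCC1 (Slc12a2) brings in and KCC2 (Slc12a5) carries out. The rise of KCC2 relative to NKCC1 in maturing neurons is known as the chloride switch.

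Values are FPKM, the fragments of a gene scaled to exon length and library size, a scale per length on which levels of different genes can be set side by side. All genes together summed to 360694, 413653 and 346181 FPKM in the controls and to 366516, 364308 and 368424 FPKM in the SMA libraries. Depth in reads is unknown from these values. Fold changes are SMA against control from limma (linear models whose variances are moderated across genes) on log2(FPKM + 1), which understates changes at low FPKM. Where 3 values follow each other for a group, they are replicates 1, 2 and 3 in that order. With 3 libraries against 3, the exact two-sided permutation test can give no p below 0.1.

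Smn1, the targeted gene, was listed at 10.4, 8.64 and 11.9 FPKM in the controls, against 8.48, 9.30 and 11.1 FPKM for SMA. The groups overlapped, and limma put the log2 fold change at -0.09 (adjusted p = 0.819, standard error 0.150) and at -0.20 without control replicate 2. The mutant allele of this line is known to lack an exon near the 3′ end and not the whole gene. The FPKM of Smn1 pools all exons and therefore gives no check of the genotype labels, and every direction between groups rests on those labels.

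The library labelled control replicate 2 stood apart from the others. All 12 hepatocyte markers were listed and none was at 0 in every library. Their summed level was 81.1, 28450 and 54.8 FPKM in the controls, against 46.1, 97.6 and 52.6 FPKM for SMA. The most abundant, the albumin gene Alb, was at 15900 FPKM in control replicate 2 and between 24.6 and 56.2 FPKM elsewhere. The 7 erythroid markers, led by the globin gene Hbb-bs, summed to 18820 FPKM there and to between 1115 and 1861 FPKM elsewhere. The 18 pan-neuronal markers summed to 2816 FPKM in control replicate 2 against 3939 to 4386 FPKM in the other 5 libraries, and 16 of 18 were lowest there. Meg3, the most abundant, was not one of these, at 812 FPKM there and 675 to 978 FPKM elsewhere. The median pan-neuronal gene there was at 56.6% of its mean in the other 5 libraries, against 88.6% for the median of all genes. Estimates between groups are therefore given with and without this library.

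Slc12a5 was the most abundant of the 8 genes. It lies on chromosome 2 from 164960802 to 164999731 on the plus strand (GRCm38, gene ENSMUSG00000017740). RefSeq gives it a pair of promoter windows, and its starts, 7142 bases apart, are known to give the KCC2a and KCC2b forms. Bases before each start are shown because the FPKM of the gene pools both starts and cannot separate them. The annotated starts are at 164960846 and 164967988, and the bases shown end before them, at 164960801 and 164967982. Capitals mark matches on either strand to an E-box, CACGTG, and a GC box, GGGCGG. The bases are reference sequence of GRCm38.p6 from another strain than these FVB mice, and all bases shown lie outside annotated exons.

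Slc12a5 upstream start, plus strand, chr2:164960596-164960801: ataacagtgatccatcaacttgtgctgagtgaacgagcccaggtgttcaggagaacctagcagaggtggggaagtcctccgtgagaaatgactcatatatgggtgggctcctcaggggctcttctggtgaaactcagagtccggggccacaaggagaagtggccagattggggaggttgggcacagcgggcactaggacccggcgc

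Slc12a5 downstream start, plus strand, chr2:164967738-164967982: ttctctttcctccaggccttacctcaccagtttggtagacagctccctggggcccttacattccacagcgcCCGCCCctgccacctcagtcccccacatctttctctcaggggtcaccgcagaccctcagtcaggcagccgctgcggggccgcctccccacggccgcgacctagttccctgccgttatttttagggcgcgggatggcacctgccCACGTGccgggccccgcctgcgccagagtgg

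Counted from the annotated downstream start, the E-box begins 36 bases and the GC box 179 bases before it. Of 32851 RefSeq windows of 300 bases, 7.15% hold the E-box letters, 35.7% those of the GC box and 13.6% TATAAA. Windows were found for 6 of the 8 genes, 7 windows in all, and the downstream Slc12a5 window alone among these 7 holds the E-box letters. Glra2 was the only one with TATAAA. All 7 windows hold the GC box letters at least once, the upstream Slc12a5 window outside the bases shown. The genes without a window were Glra1 and Slc12a2. A match describes letters only.

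Slc12a5, the neuronal chloride extruder, was at 132, 77.7 and 151 FPKM in the controls, against 123, 129 and 129 FPKM for SMA. Control replicate 2 was the lowest and control replicates 1 and 3 the highest, so the control libraries lay on both sides of the SMA libraries. The means were 120 ± 38.1 FPKM in control and 127 ± 3.31 FPKM in SMA (SD, n = 3). The log2 fold change was 0.13 (standard error 0.242, 95% interval -0.45 to 0.71, adjusted p = 0.834 from limma). Without control replicate 2 it was -0.15 (95% interval -0.32 to 0.01, unadjusted p = 0.0655, adjusted p = 0.501 from limma). The SMA libraries then lay below both controls, the separation with the smallest p that 3 against 2 allows (exact permutation test, p = 0.1).

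Slc12a2, the chloride importer, lies on chromosome 18 from 57878678 to 57946821 and is transcribed in neurons and in other cells. It was at 14.3, 11.6 and 15.5 FPKM in the controls, against 13.3, 13.9 and 14.5 FPKM for SMA. The groups overlapped, also when control replicate 2 was left out. Its estimated log2 fold change was 0.02 with all libraries (95% interval -0.28 to 0.32) and -0.10 without control replicate 2 (95% interval -0.28 to 0.09).

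The ratio of Slc12a5 to Slc12a2 in each library sets extruder against importer over the whole tissue, not within neurons. A ratio of this kind does not change when RNA without either gene is mixed in. Whether this condition held for control replicate 2 was not tested. The ratio was 9.20, 6.73 and 9.76 in the controls, against 9.26, 9.28 and 8.91 for SMA. Slc12a5 exceeded Slc12a2 in every library, and only control replicate 2 had a ratio under 8.91. On the log2 scale SMA exceeded control by 0.11 (control mean 3.08, SD 0.289; SMA mean 3.19, SD 0.0326; exact permutation p = 0.8, n = 3). With control replicate 2 left out the difference was -0.05 (exact permutation p = 0.5). The 5 remaining libraries thus lay within 8.91 to 9.76, and the groups overlapped.

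**Figure D1:**
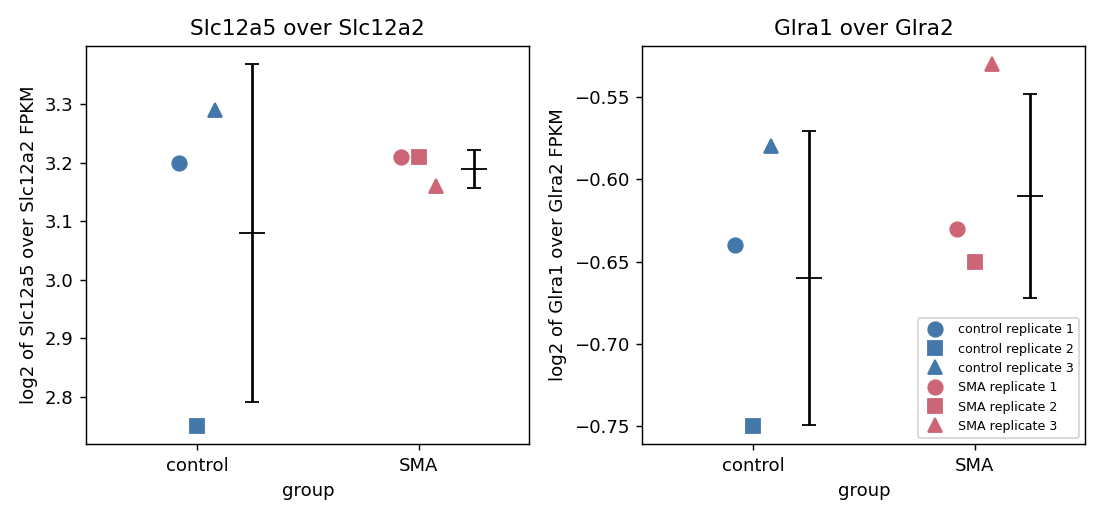
The log2 ratios of Slc12a5 to Slc12a2 (left) and of Glra1 to Glra2 (right) in each library, by group, with the group mean and SD (n = 3) in black. Control replicate 2 is the lowest point in both panels, at 2.75 and -0.75.

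Among the potassium-chloride cotransporters, which carry chloride out of cells, Slc12a5 made up 73.3% to 77.9% of the summed FPKM in 5 libraries and 65.0% in control replicate 2. Slc12a4 held 4.06% to 7.33% and Slc12a7 0.871% to 4.51%, each highest in control replicate 2.

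Glrb, the beta subunit, was the most abundant glycine receptor gene. It lies on chromosome 3 from 80843599 to 80913660. It was at 50.0, 25.2 and 47.0 FPKM in the controls, against 43.2, 48.9 and 51.1 FPKM for SMA. Control replicate 2 was near 52.5% of the mean of the other 5 libraries, which overlapped between groups. Limma gave a log2 fold change of 0.28 with all libraries (95% interval -0.33 to 0.89, adjusted p = 0.691 from limma) and -0.03 without control replicate 2 (95% interval -0.22 to 0.16).

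Glra2, the alpha subunit of the immature receptor, lies on chromosome X from 165129017 to 165327393. It was at 25.1, 15.2 and 26.4 FPKM in the controls, against 25.1, 28.0 and 28.5 FPKM for SMA. SMA replicate 1 was level with control replicate 1 and the other SMA libraries were higher than every control. The log2 fold change was 0.32 (95% interval -0.18 to 0.81, adjusted p = 0.683 from limma), and 0.08 without control replicate 2 (95% interval -0.10 to 0.25).

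Glra1, the alpha subunit of the mature receptor, lies on chromosome 11 from 55514238 to 55608198. It was at 16.1, 9.03 and 17.7 FPKM in the controls, against 16.2, 17.9 and 19.7 FPKM for SMA. SMA replicate 1 lay below control replicate 3, so the groups overlapped. Its estimated log2 fold change was 0.36 (95% interval -0.22 to 0.93, adjusted p = 0.683 from limma) and 0.08 without control replicate 2 (95% interval -0.15 to 0.30). An antisense gene, Gm12236, shares 141 exon bases with Glra1 and was listed in no library.

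Glra3, another alpha subunit, known from the superficial dorsal horn, was the least abundant of the 8 genes. It lies on chromosome 8 from 55940460 to 56125429. It was at 7.71, 2.83 and 7.21 FPKM in the controls, against 6.23, 6.76 and 7.73 FPKM for SMA. Control replicate 2 reached 39.7% of the mean of the other 5 libraries, the lowest such share of the 8 genes. Limma gave a log2 fold change of 0.28 (95% interval -0.47 to 1.03) and -0.10 without control replicate 2 (95% interval -0.37 to 0.16).

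The ratio of Glra1 to Glra2 compares the mature with the immature alpha subunit. It was 0.641, 0.594 and 0.671 in the controls, against 0.646, 0.637 and 0.690 for SMA. Glra2 exceeded Glra1 in every library. The log2 ratio differed by 0.05 between groups (control mean -0.66, SMA mean -0.61, exact permutation p = 0.5, n = 3) and by 0.00 without control replicate 2 (exact permutation p = 1).

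Glra2 held the largest share of the summed alpha FPKM in every library, 50.8% to 53.1% in 5 libraries and 55.9% in control replicate 2. Glra1 held 32.9% to 35.1% in all 6 libraries. Glra3 held 12.8% to 13.8% in SMA and 10.4% in control replicate 2, while both other controls lay above every SMA library, at up to 15.8%. Glra4 did not exceed 0.469%. Glrb over the summed alpha FPKM was 1.02, 0.928 and 0.914 in the controls, against 0.906, 0.926 and 0.912 for SMA, with control replicate 1 the highest and the groups overlapping. This ratio differed by -0.0409 between groups (exact permutation p = 0.2, n = 3) and by -0.0547 without control replicate 2 (exact permutation p = 0.2).

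Gphn encodes gephyrin, which clusters glycine and GABA-A receptors and also takes part in making the molybdenum cofactor. It lies on chromosome 12 from 78226655 to 78684767. It was at 33.2, 24.7 and 32.8 FPKM in the controls, against 29.2, 30.6 and 31.2 FPKM for SMA. The log2 fold change was 0.02 (95% interval -0.30 to 0.33). In the fit without control replicate 2 it was -0.12 (95% interval -0.26 to 0.02, unadjusted p = 0.0900, adjusted p = 0.546 from limma), and all SMA libraries then lay below both controls. A noncoding gene at its start, Gm48226, shares 147 exon bases and was listed in no library.

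Gabra2, the alpha 2 subunit of the GABA-A receptor, lies on chromosome 5 from 70957597 to 71095849. It was at 29.3, 20.8 and 26.4 FPKM in the controls, against 25.1, 27.5 and 24.8 FPKM for SMA. The groups overlapped. Its estimated log2 fold change was 0.03 (95% interval -0.30 to 0.36) and -0.11 without control replicate 2 (95% interval -0.29 to 0.08). Among the GABA-A alpha subunits Gabra2 held 20.2% to 22.1% of the summed FPKM in 5 libraries and 28.1% in control replicate 2. Gabra3 held 29.1% to 33.8% and Gabra5 26.7% to 29.6%, while Gabra4 held at most 9.32%.

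**Figure D2:**
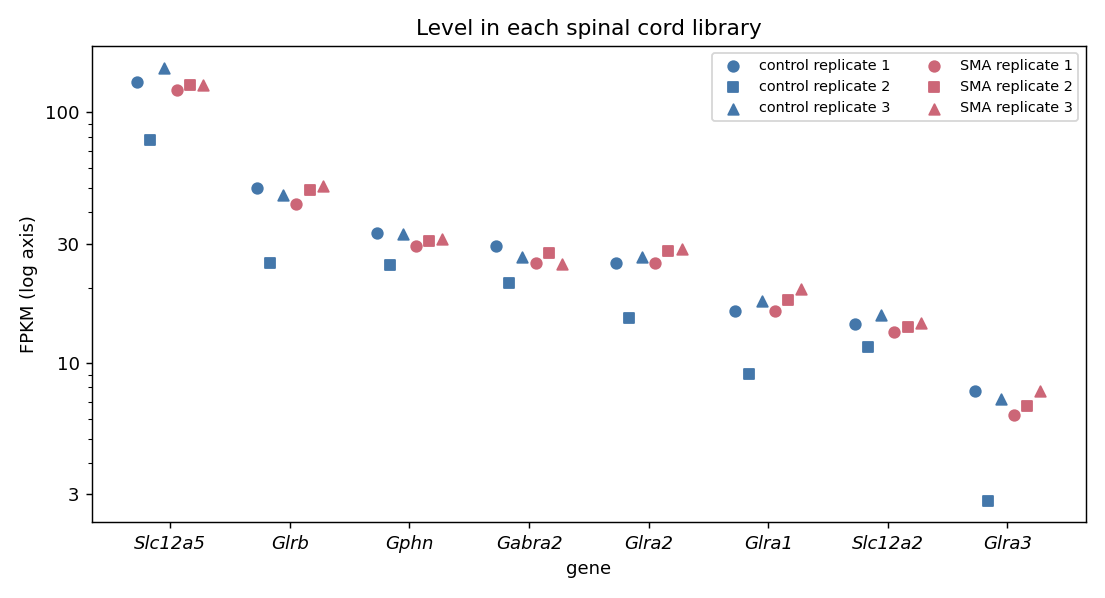
FPKM of the 8 genes (log axis) in each library, ordered by mean level. Slc12a5 sits between 77.7 and 151 FPKM and Glra3 between 2.83 and 7.73 FPKM, and control replicate 2 (blue squares) is the lowest point for each gene.

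Ordered by mean FPKM over the 6 libraries, the genes ran Slc12a5 (124), Glrb (44.2), Gphn (30.3), Gabra2 (25.6), Glra2 (24.7), Glra1 (16.1), Slc12a2 (13.8) and Glra3 (6.41). Slc12a5 stood at the 98.2 percentile of the mean FPKM of genes tested and Glra3 at the 45.8 percentile. Slc12a5 exceeded Glrb by 2.53 to 3.22 times in every library. Gabra2 and Glra2 could not be ordered, since Gabra2 was higher in 2 of 6 libraries. Gphn exceeded Gabra2 in all 6 libraries, although their ranges over the 5 libraries without control replicate 2 overlapped. Glra1 exceeded Slc12a2 in 5 of 6 libraries, all but control replicate 2.

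The 8 genes differed in how low control replicate 2 lay. Glra3, Glra1, Glrb, Glra2 and Slc12a5 were at 39.7%, 51.5%, 52.5%, 57.1% and 58.5% of their mean in the other 5 libraries, on both sides of the pan-neuronal median of 56.6%. Gabra2, Gphn and Slc12a2 were at 78.1%, 78.8% and 80.8%. All but Glra3 lay within the range of the 18 pan-neuronal markers, 49.6% to 92.3%. The upper end of this range came from Meg3 (92.3%) and Snhg11 (87.6%). Every other marker was at 66.8% or less, below Gabra2, Gphn and Slc12a2. The median astrocyte marker was at 79.1%. Fewer cells of a type and less RNA per cell cannot be told apart in tissue RNA, and the part of the hepatocyte and erythroid RNA in these shares was not tested. Among the other 5 libraries the coefficient of variation of each of the 8 genes was between 5.20% and 9.02%.

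None of the 8 genes was called at an adjusted p under 0.05, against 0% of the 17088 genes tested by limma. At an unadjusted p under 0.05 also, 0 of 8 were lower or higher, against 2.39% of genes lower (409) and 3.4% higher (581) in SMA. With all 6 libraries the groups overlapped for each of the 8 genes, while 17% of genes had groups that did not overlap. Without control replicate 2, 0 of 8 were called, against 0.0121% of 16574 genes (2 genes) at an adjusted p and 5.2% lower and 5.27% higher at an unadjusted p. The groups then did not overlap for Slc12a5 and Gphn, 2 of 8, against 28.1% of all genes, a share near the background.

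All 8 estimates were positive with all libraries, with a median log2 fold change of 0.21 against 0.04 for all genes tested. Of all genes tested 58.0% were positive, and of the pan-neuronal markers 18 of 18 (median 0.28). With control replicate 2 left out, 50.4% of all genes and 11 of 18 pan-neuronal markers were positive. Of the 8 genes 2 were then positive, Glra1 and Glra2, with a median of -0.10 against 0.00 for all genes. The intervals without that library were narrower. They reached from 0.776 to 1.23 on the scale of the ratio SMA to control of FPKM + 1. By median ratio scaling 50.8% of all genes tested were lower in SMA, against 42% without scaling and 49.6% without control replicate 2.

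**Figure D3:**
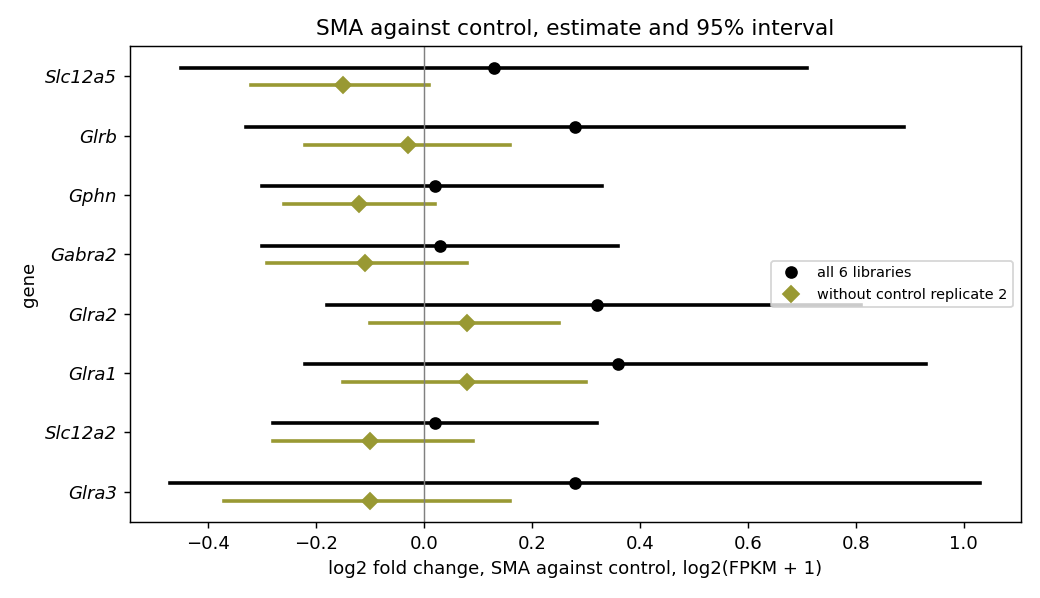
Log2 fold changes of SMA against control with their 95% intervals from limma, for all 6 libraries (black circles) and without control replicate 2 (olive diamonds). Each interval includes 0, and 6 of 8 estimates change sign, among them Slc12a5 from 0.13 to -0.15.

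Levels were also set relative to the pan-neuronal markers of the same library. The mean log2(FPKM + 1) of the 18 markers was 7.22, 6.55 and 7.27 in the controls, against 7.24, 7.31 and 7.32 for SMA. This mean was thus higher in SMA by 0.28, and by 0.04 without control replicate 2, which lowers every gene in SMA by as much on the relative scale. The markers did not move as one: without control replicate 2 their log2 fold changes ran from -0.16 to 0.21, with 4 of 18 higher at an unadjusted p under 0.05 (Syt1, Rbfox3, Celf4 and Dcx) and 1 lower (Syp), against 5.27% and 5.2% of all genes tested. The estimate of Slc12a5 without that library, -0.15, lies within this range. The median gene of all tested differed by -0.23 there, and by -0.04 without that library. The level of Slc12a5 less this mean was -0.17, -0.25 and -0.02 in control and -0.28, -0.29 and -0.30 in SMA, so every SMA library lay below every control. The difference was -0.14 (exact permutation p = 0.1, the smallest possible, n = 3), -0.20 without control replicate 2 and -0.08 without control replicate 3. Counting Gphn and Slc12a2, 3 of 8 genes had all SMA libraries below all controls on this scale with or without control replicate 2, against 17.5% of all genes tested with all libraries and 18.2% without it. In the other direction it was 0 of 8, against 0.796% of all genes with all libraries and 8.28% without control replicate 2.

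Gphn and Slc12a2, each with a log2 fold change of 0.02 before the marker mean was subtracted, differed by -0.26 each on this scale (exact permutation p = 0.1, n = 3), close to the shift of the markers themselves, and by -0.16 and -0.14 without control replicate 2. Gabra2 differed by -0.25 with overlapping groups (exact permutation p = 0.2, n = 3), and by -0.15 without that library. The glycine receptor subunits differed by 0.08 for Glra1, 0.04 for Glra2 and 0.00 for Glra3 and Glrb (exact permutation p = 0.4, 0.4, 1 and 1, n = 3). Leaving out control replicate 2 gave 0.03, 0.03, -0.14 and -0.07 for these 4 genes. Tests of 8 genes were made and no p was adjusted, since the smallest possible p is 0.1.

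By the smallest root mean square difference of centred log2(FPKM + 1) over the 6 libraries, the genes nearest to Slc12a5 included Cd200 (0.0349) and Hspa12a (0.0369). Those nearest to Slc12a2 were Prrc2a (0.0193), Frem3 (0.0215) and Cnnm2 (0.0219). Those nearest to Glra1 were Fbxo41 (0.0377), Syt3 (0.0429) and Cacna2d3 (0.0465). On the same scale the spread of each gene around its own mean was 0.298 for Slc12a5, 0.123 for Slc12a2 and 0.341 for Glra1.

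The other genes of the pathway were read in the same fit. Beside the 8 genes the pathway lists hold 57 others, of which 56 were listed and 47 tested, 0 of them at an adjusted p under 0.05 with or without control replicate 2 (limma). At an unadjusted p under 0.05, 0 were lower and 2 higher (4.26%), Shisa7 and Wnk2, against 2.39% lower and 3.4% higher of all genes tested. In the fit without control replicate 2, 3 were lower (6.38%) and 5 higher (10.6%), against 5.2% and 5.27% of all genes tested. The median log2 fold change of the 47 genes was 0.20 with all libraries and 0.02 without control replicate 2, against 0.04 and 0.00 for all genes tested.

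All 13 GABA-A receptor subunits tested had positive estimates with all libraries (median 0.19), against 58.0% of all genes tested. Without control replicate 2 it was 4 of 13 (median -0.05), against 50.4%. None passed at an unadjusted p under 0.05 in either case. The glycine receptor list holds 5 subunits, of which 4 were tested, since Glra4 was at a mean of 0.0850 FPKM. The metabotropic GABA-B subunits Gabbr1 and Gabbr2 averaged 132 and 34.7 FPKM. Gabbr1 had an estimate of 0.21, and of -0.03 without control replicate 2. Gabbr2 was at 33.6, 23.7 and 34.9 FPKM in control and 37.8, 39.3 and 38.8 FPKM in SMA, with a log2 fold change of 0.34 (unadjusted p = 0.0651, adjusted p = 0.683 from limma) and 0.17 without control replicate 2 (unadjusted p = 0.0194, adjusted p = 0.405 from limma).

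Of the 11 genes of the postsynaptic scaffold and its partners, Shisa7, an auxiliary protein of GABA-A receptors, was higher at an unadjusted p of 0.0405 (log2 fold change 0.36, adjusted p = 0.683 from limma). Its FPKM was 18.4, 15.8 and 22.3 in control and 23.4, 26.8 and 22.7 in SMA. Leaving out control replicate 2 gave 0.25 (unadjusted p = 0.0458). Insyn1 followed with an estimate of 0.33, and 0.15 without that library. Gabarap, which takes part in receptor trafficking and autophagy, was the most abundant at 99.8 FPKM and had a log2 fold change of -0.17, and -0.18 without control replicate 2 (unadjusted p = 0.0276).

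The cotransporter list has 9 genes, 6 of them tested and 0 past an unadjusted p under 0.05 with or without control replicate 2. Slc12a7 had the largest estimate, -0.43, and was at 5.40 FPKM in control replicate 2 and at 1.49 to 2.24 FPKM elsewhere. Without that library it was -0.05. Slc12a9, an orphan member, had an estimate of 0.20, and of 0.09 without it.

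The kinases of the WNK pathway phosphorylate KCC2 and NKCC1 and so set their activity, which RNA levels do not measure. Wnk2 was at 25.2, 19.1 and 29.8 FPKM in control and at 32.0, 32.0 and 33.5 FPKM in SMA, with a log2 fold change of 0.40 (unadjusted p = 0.0425, adjusted p = 0.683 from limma) and 0.24 without control replicate 2. Stk39, the kinase SPAK that acts on both transporters, was at 29.1, 18.7 and 30.4 FPKM in control and at 24.4, 24.2 and 24.8 FPKM in SMA. With all libraries the log2 fold change was -0.06 (unadjusted p = 0.758). Without control replicate 2 it was -0.27 (unadjusted p = 0.00243, adjusted p = 0.291 from limma).

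All 7 genes for release and uptake of GABA and glycine had positive estimates with all libraries, against 58.0% of all genes tested. Of these 7 genes, 0 were past an unadjusted p under 0.05. Slc32a1, the vesicular transporter of both transmitters, was at 39.2, 19.5 and 41.6 FPKM in control and 44.1, 46.4 and 46.7 FPKM in SMA, with a log2 fold change of 0.51 (adjusted p = 0.683 from limma) and 0.18 without control replicate 2 (unadjusted p = 0.0207). Gad1, a synthetic enzyme of GABA, had an estimate of 0.39, and of 0.13 without that library. Slc6a5, the neuronal glycine transporter, was at 63.9, 32.6 and 70.6 FPKM in control and 53.5, 61.2 and 60.9 FPKM in SMA, with 0.14 with all libraries and -0.20 without control replicate 2 (unadjusted p = 0.0403). Slc6a11, a GABA transporter of astrocytes, was the most abundant at 218 FPKM.

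The excitatory AMPA and NMDA receptor subunits were set beside the inhibitory genes. All 10 tested of 11 had positive estimates with all libraries (median 0.28) and 8 of 10 without control replicate 2 (median 0.07). The shares of all genes tested were 58.0% and 50.4%. At an unadjusted p under 0.05, 1 of 10 was higher, against 3.4% of all genes tested, and 2 of 10 without control replicate 2, against 5.27%. Grin2d was higher at an unadjusted p of 0.0214 (log2 fold change 0.32, adjusted p = 0.683 from limma), and at 0.00877 without control replicate 2 (0.23, adjusted p = 0.360 from limma). Grin2b was past 0.05 only without that library (0.15, adjusted p = 0.456 from limma). Gria2 was the most abundant at 123 FPKM and Gria1 had an estimate of 0.34, and of 0.11 without control replicate 2. Of the 3 other genes of molybdenum cofactor synthesis, Mocs1 was at 7.22 FPKM in control replicate 2 and 2.12 to 3.15 FPKM elsewhere, with estimates of -0.28, and 0.13 without that library. Mocs2, the most abundant, was at 22.5 FPKM with an estimate of -0.23, and of -0.07 without it.

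**Figure D4:**
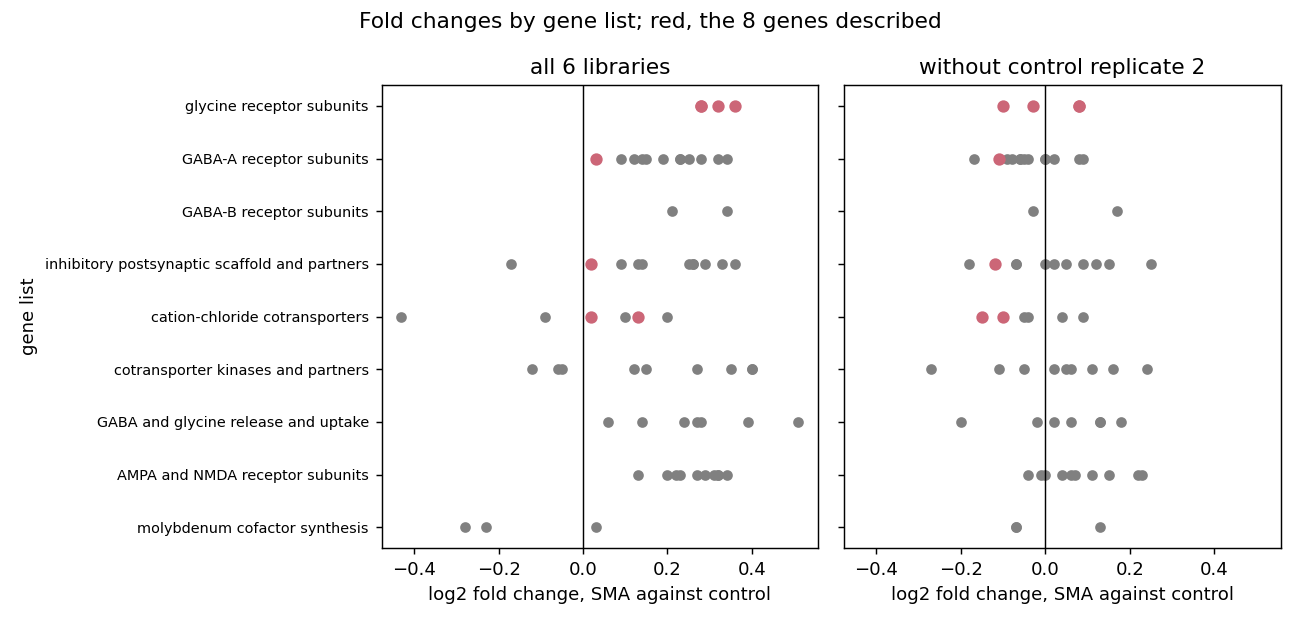
Log2 fold changes of SMA against control for each tested gene, by list, with all 6 libraries (left) and without control replicate 2 (right), the 8 genes described in red. Counting these 8, 47 of the 55 pathway genes lie above 0 on the left and 27 of 55 on the right. Of all genes tested, 58.0% and 50.4% were positive in these fits.

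Markers of other cells were read in the same libraries. The 4 endothelial markers, led by Cldn5, summed to 44.8, 49.0 and 44.5 FPKM in control and 34.1, 27.2 and 27.0 FPKM in SMA, and 3 of 4 were lower at an unadjusted p under 0.05 with and without control replicate 2, against 2.39% and 5.2% of all genes tested. The 7 markers of the oligodendrocyte lineage, led by Mbp, summed to 809.1, 779.1 and 1194 FPKM in control and 655.1, 799.5 and 828.2 FPKM in SMA. Their median log2 fold change was -0.28 with 0 of 7 lower at an unadjusted p under 0.05, and -0.39 with 2 of 7 lower, Pdgfra and Mag, without control replicate 2. The 5 motor neuron markers, led by Prph, summed to 49.1, 32.8 and 73.5 FPKM in control and 45.4, 50.1 and 47.4 FPKM in SMA. For the 4 of them tested the median was -0.04 with 0 lower, and -0.27 with 1 lower, Slc5a7, without that library. The 3 Schwann cell markers summed to 5.36 FPKM in SMA replicate 3 and to 63.9 to 218.8 FPKM elsewhere. The 6 astrocyte markers, led by Gfap, summed to 469.8 to 589.4 FPKM, the 4 of microglia, led by P2ry12, to 40.6 to 54.2 FPKM and the 4 of skeletal muscle, led by Acta1, to 1.60 to 5.92 FPKM. In these last 4 lists 0 genes passed an unadjusted p under 0.05 with all libraries, and 1, Aqp4 of astrocytes, was lower without control replicate 2. None of the genes in the cell type lists passed at an adjusted p under 0.05 (limma). The part of other cells in the levels of the 8 genes was not tested.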

How the data were processed

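Total RNA of whole spinal cord was depleted of ribosomal RNA and made into strand-specific libraries. The submitters' processing notes name HISAT2, Cufflinks and mm10, with no versions or annotation release given in the sources used here. The deposited values are FPKM that the authors computed per library with Cufflinks. Each file lists only genes above 0, so an absent gene was set to 0. Starts were converted to count from 1. The authors' comparison used read counts, which were not used here.

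Groups came from the sample labels. FPKM was transformed to log2(FPKM + 1), genes with a mean of at least 0.5 were tested, and SMA was compared with control by limma 3.58.1 in R 4.3.3 (trend, no covariate, Benjamini-Hochberg adjustment over all genes tested). The fit was also run on simulated data, with no outcome reported here. Ratios and relative levels used exact two-sided permutation tests (Python 3.11.15, numpy 2.4.6, pandas 2.3.3). There were 20 assignments for 3 libraries against 3 and 10 for 3 against 2. Promoter windows came from RefSeq and overlapping exons from GENCODE.

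The 8 genes and all lists were chosen with earlier results of these data known. The genes named are the 8 genes, Smn1, in each pathway list the pair with the largest absolute log2 fold change and the most abundant gene, in each cell type list the most abundant gene, and for Slc12a5, Slc12a2 and Glra1 the 3 nearest profiles. Other pathway genes at a mean of at least 1 FPKM, and some cell type markers, were named for an unadjusted p under 0.05 or a share, after their values were seen. Some genes that these rules name are not reported here. Lists were described by counts and medians. Alternatives were pseudocounts, filters, scalings, robust variances, the replicate number as a block and leaving out each library. The counts of pathway lists and of groups that did not overlap without control replicate 2, those of all genes relative to pan-neuronal markers and the ratio of Glrb to alpha subunits without that library, were added after seeing the data.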

Additional observations from a re-analysis of the deposited data

How the results depend on the processing

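None of the 8 genes passed an adjusted p of 0.05 under any alternative run (adjusted p from 0.447 to 0.997, limma). With 3 libraries per group and no read counts, small differences could not be resolved. Leaving out single libraries gave log2 fold changes of Glra3 from -0.10 to 0.49, Glrb from -0.03 to 0.45, Gphn from -0.12 to 0.09, Gabra2 from -0.11 to 0.13, Slc12a5 from -0.15 to 0.32 and Slc12a2 from -0.10 to 0.10, each lowest without control replicate 2. Likewise Smn1 ran from -0.20 to 0.01, Gabbr1 from -0.03 to 0.38, Stk39 from -0.27 to 0.06 and Slc6a5 from -0.20 to 0.35. Mocs1 ran from -0.57 to 0.13, highest without control replicate 2. The log2 ratio of Slc12a5 to Slc12a2 differed by -0.05 to 0.22, and the levels of Glra3, Glrb and Slc12a5 relative to pan-neuronal markers by -0.14 to 0.11, -0.07 to 0.07 and -0.20 to -0.08. With median ratio scaling Gphn, Gabra2 and Slc12a2 were at -0.04, -0.03 and -0.04, and with quantile normalization Gphn and Gabra2 were at -0.02 and -0.00. With median ratio scaling and no control replicate 2, Glra3, Glrb, Gphn, Gabra2, Slc12a5 and Slc12a2 were at -0.10, -0.03, -0.12, -0.11, -0.16 and -0.10, and Gabbr1, Mocs1 and Slc6a5 at -0.04, 0.13 and -0.20. The cause was not tested. Over all genes, an unadjusted p under 0.05 was reached by 409 that were lower and 581 that were higher. Leaving out single libraries gave 125 to 862 lower and 214 to 1040 higher, the fewest without SMA replicate 3, with 0 to 2 genes at an adjusted p under 0.05. No filter gave 882 higher. Median ratio scaling and no control replicate 2 gave 897 lower and 1 gene at an adjusted p under 0.05. In the pathway lists 0 lower and 2 higher became 3 and 5 without control replicate 2. The replicate number as a block gave 303 lower and 356 higher and 0 at an adjusted p. Same-numbered libraries correlated at -0.0370, 0.0161 and 0.0766 in their deviations, and not every library correlated best with its own number. The deviations come from groups of 3 libraries that include control replicate 2. They cannot show whether same-numbered libraries share a litter or preparation.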
